A study of Mus musculus with 2 samples.

Results

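Conventional dendritic cells type 2 (cDC2) were examined in droplet single-cell RNA counts of mouse liver. The cells were chosen by raw counts of unique molecular identifiers (UMIs, 1 per captured RNA molecule), and 197 of 9146 barcodes that passed the filters met the rule, 96 from wild-type mice and 101 from the mutant, called yap1. A barcode passed with at least 500 UMIs and at most 20% of them mitochondrial. A member then had at least 3 UMIs of Cd209a, Flt3, Klrd1 and Clec10a together, at least 1 of Cd209a or Flt3, and at least 20 of the MHC class II genes H2-Ab1, H2-Eb1 and H2-Aa together. It had no UMI of Siglech, Ms4a1, Cd3e or Ncr1, which mark plasmacytoid dendritic cells, B cells, T cells and natural killer cells. It had at most 2 UMIs of Fscn1, Ccl22, Cacnb3 and Apol7c, which mark migratory dendritic cells.

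Both libraries hold nonparenchymal cells, the liver cells that stay in suspension when hepatocytes are pelleted, from C57BL/6 mice given carbon tetrachloride 4 times. This toxin injures hepatocytes and is used as a model of liver fibrosis, and an uninjured liver was not analysed here. The WT library is labelled wild type. The library labelled yap1 is, by the series' design text, from yap1flox/floxlyz2cre mice, in which Cre is expressed from the locus of lysozyme 2 (Lyz2) and acts mainly in monocytes, macrophages and neutrophils, so dendritic cells need not have recombined. Each library is described as a sample from 3 mice and there is 1 library per genotype. No difference below therefore has a replicate check, no test was made, and every 95% interval covers counting error only. Age and sex are not given in the labels.

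Conventional dendritic cells arise from bone marrow precursors that respond to the cytokine receptor Flt3, and they take up antigen and present it to T cells. Type 2 cells carry Sirpa and depend on the transcription factor Irf4, and they present peptides on MHC class II mainly to CD4 T cells. Type 1 cells (cDC1) carry Xcr1 and Clec9a and depend on Irf8 and Batf3. In liver, type 2 cells lie mostly around portal tracts and share many transcripts with monocytes, which enter the injured tissue in large numbers.

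The WT library held 30386545 UMIs in 5269 barcodes and the yap1 library 34234353 in 4731, with medians of 4101 and 5252 UMIs per passing barcode. The members were deeper than most cells, with medians of 13168 and 16241 UMIs, of 3096 and 3463 genes, and of 2.37% and 2.40% mitochondrial UMIs. Their summed UMIs were 1341719 and 1633321, so 3 UMIs, the number up to which a count of 0 is read, correspond to 2.24 and 1.84 CPM, the counts of a gene per 1000000 UMIs of the members. The libraries shared 5 barcode sequences, and no member was among them. The automatic doublet threshold of Scrublet marked 0.981% of WT and 0.0941% of yap1 barcodes and was not used. Among the top 4% of barcodes by doublet score, 1 was a WT member and 7 were yap1 members.

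The values that chose the members are given as a description. The 4 rule markers together had a median of 11 UMIs per WT member and 21 per yap1 member, with highest values of 118 and 92. Cd209a, a C-type lectin of the DC-SIGN family, was found in 59 of 96 WT and 72 of 101 yap1 members, with medians of 2 and 3 UMIs and up to 60 and 58. Flt3 was found in 87 and 91 members, Klrd1 (CD94, a lectin-like receptor shared with natural killer cells) in 73 and 91, and Clec10a (a galactose-binding lectin) in 50 and 48. Just inside the threshold, 10 WT and 4 yap1 members had a marker sum of exactly 3. Just outside it, 13 and 5 barcodes that met every other criterion had a sum of 2. Siglech alone kept out 79 WT and 55 yap1 barcodes, far more than Ms4a1 alone (8 and 4) or the migratory genes alone (9 and 11).

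**Figure D1:**
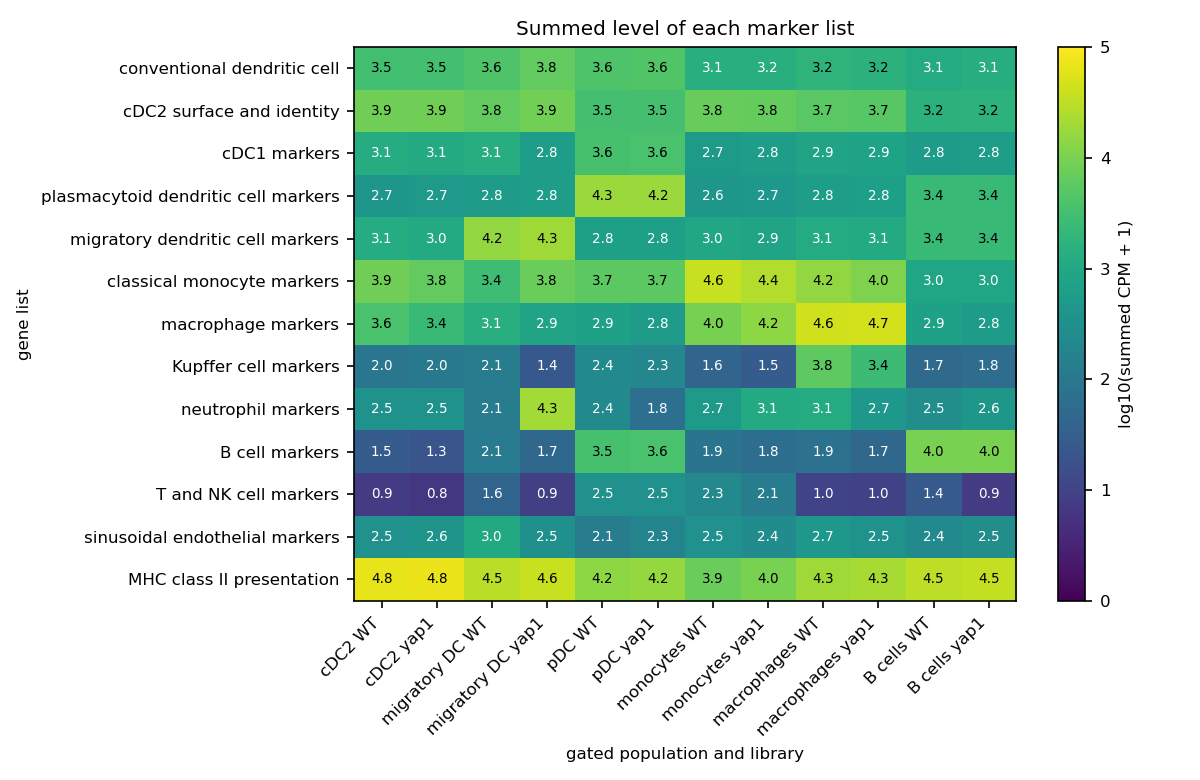
Summed level of 13 gene lists (rows) in 6 gated cell populations of each library (columns), as log10 of the summed CPM plus 1, which is also the number in each cell. The cDC2 columns have the brightest MHC class II cells (4.8 in both libraries) and T and NK cells of 0.9 and 0.8. Their classical monocyte row lies between that of B cells and that of monocytes. The lists keep the genes of the rule, so the MHC class II and the T and NK values follow in part from the selection. The separate gate for type 1 dendritic cells is not shown.

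The label was checked against markers of the other cells that a liver suspension can hold. Lymphocyte, mast cell and plasmacytoid markers were far below their level in the cells they mark. The summed B cell markers were at 28 and 20 CPM in WT and yap1 members, against 10042 and 10013 CPM in gated B cells. T and NK markers were at 7 and 6 CPM, with 5 of 10 and 4 of 10 at 0, and all 7 basophil and mast cell markers were at 0 in both libraries. Plasmacytoid markers summed to 450 and 507 CPM, against 18078 and 17779 in gated plasmacytoid dendritic cells. The B cell, T and NK, and plasmacytoid lists include Ms4a1, Cd3e, Ncr1 and Siglech, of which the rule allowed no UMI. Their sums, and the count of T and NK markers at 0, therefore follow in part from the selection. Sinusoidal endothelial markers summed to 335 and 384 CPM, against 465 and 349 in macrophages and 237 and 292 in B cells, and 1 yap1 member held 29.3% of the yap1 UMIs. Hepatocyte genes summed to 174 and 152 CPM, against 958 and 696 in macrophages and 174 and 146 in B cells. Without rule genes, the conventional dendritic cell list summed to 2820 and 3009 CPM in members and 1349 and 1415 in monocytes. It was higher in plasmacytoid (4074 and 4252) and migratory dendritic cells (4047 and 6016). The cDC2 surface and identity list summed to 7268 and 6869 CPM, against 6897 and 6548 in monocytes. In plasmacytoid cells it was at 2741 and 2767, and in migratory cells at 6013 and 8231.

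Myeloid RNA was present and uneven. The classical monocyte list summed to 8299 CPM in WT and 6165 CPM in yap1 members, against 38416 and 25960 in gated monocytes, with Ly6c2 found in 24 and 30 members. This list includes Lyz2, whose locus carries Cre in yap1 mice and which was itself lower in yap1 members, as given below. The macrophage list summed to 3635 and 2316 CPM, against 44225 and 45377 in gated macrophages. A single member held 18.9% of the macrophage-list UMIs in WT and a single one 23.7% in yap1, and 10 WT and 6 yap1 members had over 2 UMIs of the complement genes C1qa, C1qb and C1qc together. One yap1 member held 3803 hemoglobin UMIs, 98.9% of those in all yap1 members, and no WT member had over 3. Neutrophil-list UMIs reached 10 in 1 WT and 3 yap1 members, and Kupffer-list UMIs in 2 and 2.

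The rule also let in cells with the genes of type 1 dendritic cells. In 13 WT (13.5%, 95% exact Clopper-Pearson interval 7.41 to 22.04) and 11 yap1 members (10.9%, 5.56 to 18.7) Xcr1 and Clec9a had at least 2 UMIs together. Xcr1 is the receptor for Xcl1, and Clec9a binds actin exposed by dead cells. Of these members 12 of 13 and 9 of 11 had no Cd209a UMI and passed through Flt3. Irf8, the transcription factor of type 1 cells, separated most of them from all other members. It had a median of 16.0 UMIs per 10000 in the 13 WT cells and 20.2 in the 11 yap1 cells, and a median of 0 in the remaining 83 and 90. In WT 11 of the 13, and in yap1 8 of the 11, lay above every remaining member, of which the highest had 2.71 and 5.75 per 10000.

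**Figure D2:**
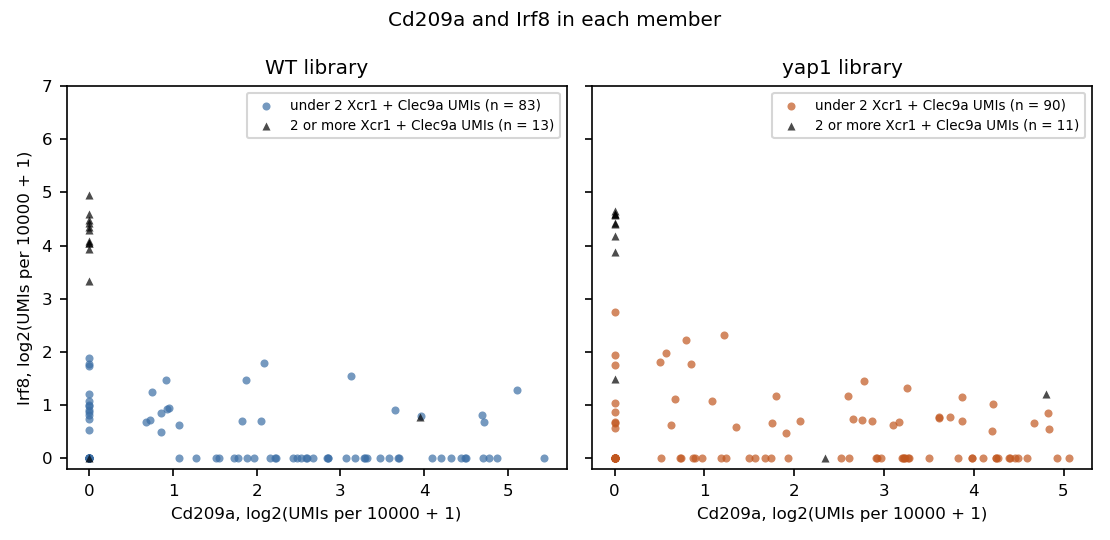
Cd209a (horizontal) against Irf8 (vertical) in each member, both as log2 of UMIs per 10000 plus 1, with the WT library on the left and the yap1 library on the right. Triangles are members with at least 2 UMIs of Xcr1 and Clec9a, and most of them sit at 0 for Cd209a and above every circle for Irf8.

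Other markers of the 2 lineages divided in the same cells. Naaa, a lysosomal acid amidase, was at 1324 CPM in the Xcr1 or Clec9a members of WT and 1148 of yap1, against 117 and 122 CPM in members with Cd209a. Cst3, a protease inhibitor abundant in type 1 cells, was at 17640 and 19084 CPM, against 4223 and 4341. Id2 was at 1657 and 1942 CPM against 532 and 537, and Snx22 at 108 and 141 against 1 and 2. Type 2 genes were low there: Sirpa was at 18 and 62 CPM against 279 and 361, Cd300a at 113 and 87 against 398 and 298, and S100a4 at 356 and 233 against 1737 and 1542. Cst3 was named after its values were seen. In this contrast with type 1 cells only, the label held for the 58 WT and 70 yap1 members with Cd209a and under 2 UMIs of Xcr1 and Clec9a. Cd209a is itself a rule marker. Of all members with Cd209a, 4 WT and 5 yap1 had over 2 C1q UMIs, and 14 and 22 had a Ly6c2 UMI. The gate as a whole contains cells with a type 1 profile.

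The remaining 25 WT and 20 yap1 members had Flt3 and no Cd209a. Their Sirpa, at 319 and 338 CPM, was near that of members with Cd209a, while Tnfsf9 was lower, at 369 and 67 CPM against 803 and 888. C1qb, a subunit of the complement component C1q made by macrophages, was at 1213 CPM in the WT and 10 CPM in the yap1 cells, but 6 of the 25 WT cells held 435 of its 437 UMIs and the median cell had 0. Apoe, an apolipoprotein made by macrophages and hepatocytes, was at 5876 and 127 CPM, with 95.6% of the WT UMIs in 6 cells and medians of 2 and 1.5 UMIs. Lyz2 was at 5818 and 904 CPM, with medians of 21 and 1 UMIs. A second set of values was therefore computed from 54 WT and 60 yap1 members, called the Cd209a core. These had a Cd209a UMI, at most 1 UMI of Xcr1 and Clec9a, at most 2 of C1q, and under 10 UMIs each of the hemoglobin, neutrophil, Kupffer and endothelial lists (the last without Dpp4 and Fcgr2b, which dendritic cells express). This set was defined after the values above were seen.

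The members made up 1.96% of passing WT barcodes (95% interval 1.59 to 2.39) and 2.37% of passing yap1 barcodes (1.94 to 2.88). The ratio of yap1 to WT was 1.21 (0.918 to 1.60), an interval that includes 1. Because a deeper cell reaches 3 UMIs more easily, barcodes were also thinned to 2000 UMIs, which left 42 of 4080 WT (1.03%) and 56 of 3687 yap1 barcodes (1.52%), a ratio of 1.48 (0.991 to 2.20). Requiring 5 marker UMIs gave 78 and 93 members and a ratio of 1.37 (1.02 to 1.85), the single setting of 9 in which the interval excluded 1. Plasmacytoid dendritic cells made up 2.88% and 1.95%, a ratio of 0.677 (0.518 to 0.885). Classical monocytes made up 3.84% and 5.41%, a ratio of 1.41 (1.17 to 1.70). Migratory dendritic cells numbered 16 and 13. A share of all cells moves with every other population, so the cDC2 share cannot be told apart from changes in the rest of the suspension.

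Antigen presentation genes are described without the 3 that the rule asked for. The other 14 genes of MHC class II presentation found in the files summed to 30430 CPM in WT and 34045 CPM in yap1 members. The sums were 18832 and 21056 in B cells, 8221 and 9710 in plasmacytoid dendritic cells, and 5476 and 7310 in classical monocytes. Migratory dendritic cells had 13928 and 18471. A separate gate for type 1 dendritic cells, with only 12 WT and 2 yap1 cells, had 23141 and 38305, the second above the members. Of the 11 remaining genes with enough UMIs for the comparison, 7 were at least 2-fold higher in members than in monocytes in both libraries. Likewise, 9 of 11 were higher than in plasmacytoid dendritic cells and 4 of 14 higher than in B cells. Among all genes with at least 100 UMIs these shares were 3.61%, 8.44% and 12.8%. For the genes of cDC2 surface and identity that are not rule markers, the counts were 7 of 21, 14 of 20 and 17 of 22 in the same order. All of these genes were measured in the cells that the rule had selected, so the counts are a description. H2-DMb1, a subunit of the chaperone that loads peptide on class II, was at 1056 and 925 CPM, against 117 and 135 in monocytes and 175 and 169 in B cells.

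The genes outside the rule with the largest excess over all other passing barcodes were led by Mgl2, Spint1, Tnfsf9, Rtn1, Chn2, Cd34 and Olfm1. Mgl2, a galactose-type lectin used as a surface marker of type 2 cells in skin, was at 99.9 CPM in WT members and 22.04 in yap1 members, against 3.84 and 1.15 in the remaining cells. Tnfsf9, the ligand of the costimulatory receptor 4-1BB, was at 571 and 618 CPM against 45.8 and 26.8, and it was found in 57.3% and 59.4% of members. Members with Cd209a held most of it, at 803 and 888 CPM, against 104 and 75 CPM in those with Xcr1 or Clec9a. Olfm1, a secreted glycoprotein, was at 217 and 218 CPM against 23.4 and 20.8, and it was found in 80.2% and 89.1% of members. B cells, which should lack it, had an Olfm1 UMI in 0.457% and 0.284% of cells at median depths of 3634 and 4416 UMIs. Plbd1, a phospholipase B-like protein, was at 532 and 546 CPM against 195 and 211 in monocytes. Epha2, an ephrin receptor, was at 106 and 91.2 CPM and was higher still in plasmacytoid dendritic cells, at 164 and 187. Cbfa2t3, a transcriptional corepressor of early dendritic cell development, was at 233 and 260 CPM against 52.9 and 71.9 in monocytes.

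Between the libraries, 5526 genes had at least 50 UMIs in the members together. A ratio of yap1 to WT CPM of at least 1.5 in either direction is used below as a size, not as a test. By it 277 genes (5.01%) were higher and 336 (6.08%) lower in yap1 members, and the median log2 ratio of all 5526 was -0.03. In the Cd209a core 3798 genes reached 50 UMIs, of which 196 were higher and 322 lower. A list median given for the core covers only the list genes that reached 50 UMIs there. Of the 277 higher genes 117 could be measured in the core and 94 were past 1.5-fold there too. Of the 336 lower genes 175 could be measured and 140 were past it.

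**Figure D3:**
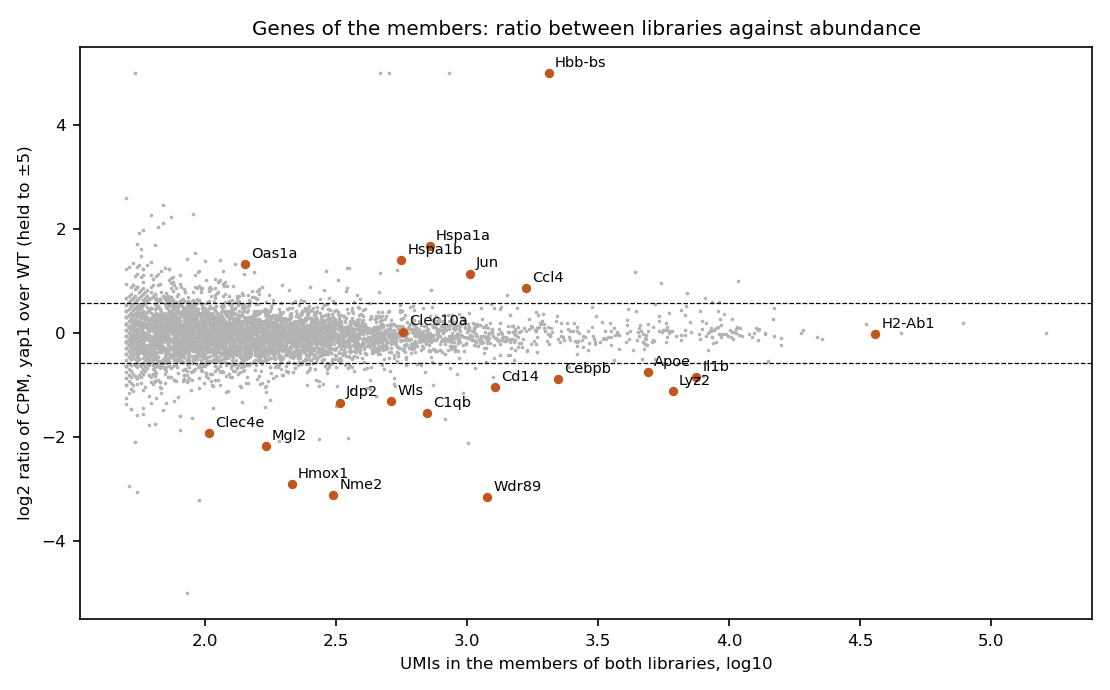
Each point is 1 of 5526 genes, with the log10 of its UMIs in all 197 members (horizontal) and its log2 ratio of CPM in yap1 over WT members (vertical, held to 5 either way). Dashed lines mark 1.5-fold, and the spread narrows with abundance, so genes such as Wdr89, Jun, Ccl4, Cd14 and Cebpb lie well outside the cloud at their abundance.

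The Yap1 gene itself could not be checked. It had 0 UMIs in members of both libraries, which allows up to 2.24 CPM in WT and 1.84 CPM in yap1. Wwtr1, the paralogous coactivator TAZ, had 0 and 3 UMIs. The 5 dopamine receptors, of which Drd2 is in the series' title, had no UMI in any member. Of 20 Hippo pathway genes 9 were measured and none was past 1.5-fold, with a median log2 ratio of 0.05. The kinase Lats2 was at 47.0 and 34.9 CPM (ratio 0.74, 0.51 to 1.08, with 0.61 in the core) and the kinase Stk4 at 93.2 and 82.0 CPM (0.88, 0.68 to 1.13). Of 20 genes known as targets of YAP and TEAD in other cells 7 were measured, with a median log2 ratio of -0.36 in all members and 0.03 in the core. Of the 7, 5 were below 1, and the summed ratio of the list was 0.75 (0.69 to 0.82). Myof, a membrane repair protein, was higher (26.8 and 41.0 CPM, ratio 1.53, 1.01 to 2.36), and Gadd45b, a stress-response gene, lower (400 and 231 CPM, 0.58, 0.50 to 0.66). Gadd45b was also at 0.61 in plasmacytoid dendritic cells.

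MHC class II genes differed little between the libraries. Of the 14 measured, none was past 1.5-fold, against 5.01% higher and 6.08% lower among all genes, and the median log2 ratio was 0.05. The 14 include the rule genes H2-Ab1, H2-Aa and H2-Eb1, for which members had to reach a minimum, so these values are a description. H2-Ab1 ranged from 10 to 362 UMIs per WT member with a median of 170, and from 16 to 368 per yap1 member with a median of 204. Summed, it was at 12250 and 12122 CPM, a ratio of 0.99 (0.97 to 1.01). H2-Aa had a ratio of 1.03 (1.01 to 1.05) and H2-Eb1 of 1.12 (1.10 to 1.15). Ciita, the coactivator that drives class II transcription, was at 96.9 and 134 CPM (1.38, 1.11 to 1.73), and the ratio was 1.48 in macrophages and 1.12 in B cells. The 17 measured class I genes had a median log2 ratio of 0.16 and none past 1.5-fold. B2m, the light chain of class I, was at 1833 and 2494 CPM (1.36, 1.29 to 1.43), with ratios from 1.19 to 1.32 in plasmacytoid dendritic cells, monocytes, macrophages and B cells.

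Irf4 and Zbtb46, factors of the conventional dendritic cell programme, were higher in yap1 members. Irf4 drives type 2 identity and was found in 20 of 96 WT and 38 of 101 yap1 members, never above 3 and 6 UMIs, and its summed level was 21.6 and 39.2 CPM (ratio 1.81, 1.15 to 2.92). Zbtb46, a repressor that marks conventional dendritic cells, had 26 and 57 UMIs, or 19.4 and 34.9 CPM (1.80, 1.11 to 2.98). In the core the ratios were 1.74 and 1.68. Irf4 was also higher in plasmacytoid dendritic cells (ratio 3.52) and B cells (1.66), while Zbtb46 had at most 8 UMIs per library in each of the other populations. They were the 2 genes of 17 measured on the conventional dendritic cell list past 1.5-fold higher (5.01% among all genes), with none lower (6.08%) and a median log2 ratio of 0.16. The 17 include the rule marker Flt3.

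Other genes of dendritic cell identity were at similar levels in the libraries. Sirpa, an inhibitory receptor for CD47 that marks type 2 cells, was found in 80 of 96 WT and 89 of 101 yap1 members and was at 247 and 313 CPM (ratio 1.27, 1.10 to 1.46). Itgax (CD11c) was found in 68 and 83 members and was at 170 and 204 CPM (1.20, 1.01 to 1.43), and Itgam (CD11b) in 72 and 81 members at 167 and 151 CPM (0.90, 0.75 to 1.09). Both integrin chains are used to sort type 2 cells. Napsa, an aspartic protease, was found in 96 and 101 members, that is in all of them, at 795 and 839 CPM (1.05, 0.97 to 1.14). Ccr2, the receptor by which monocytes and some type 2 precursors leave the marrow, was at 708 and 713 CPM (1.01, 0.92 to 1.10). Of 23 measured genes of cDC2 surface and identity (rule markers Cd209a, Clec10a and Klrd1 included) 1 was past 1.5-fold higher and 2 lower. The median log2 ratio was -0.04. The higher one was Cx3cr1, the fractalkine receptor, at 61.9 and 94.9 CPM (1.53, 1.17 to 2.03; core 1.92), with 1.53 in monocytes and 1.58 in macrophages. The lower ones were Mgl2, given below, and Ifitm1, an interferon-induced membrane protein, at 453 and 285 CPM (0.63, 0.56 to 0.71; core 0.48).

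A T-bet-positive subset of type 2 cells is known in mouse spleen. Tbx21, which encodes T-bet, had 8 and 11 UMIs in 8 WT and 6 yap1 members, too few to divide the members by it at this depth. Of 12 genes listed for that subset 4 were measured, with none higher and 1 lower (Nr4a2, given below).

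Trafficking receptors and antigen-processing enzymes differed little. Of 14 measured chemokine receptors and integrins, Cx3cr1 was the 1 past 1.5-fold higher and Ccr7, the receptor for homing to lymph nodes, the 1 lower. Ccr7 was found in 21 WT and 13 yap1 members, with highest values of 48 and 42 UMIs, and was at 99.9 and 66.1 CPM (0.66, 0.51 to 0.86; core 0.61). It reached 3 UMIs in 8 WT and 7 yap1 members in spite of the exclusion of migratory cells. Itgb7, a chain of the gut-homing integrin, was at 294 and 383 CPM (1.30, 1.14 to 1.48; core 1.13). Among 18 measured lysosomal genes 1 was higher and 1 (Lyz2) lower, with a median log2 ratio of -0.02. Ctss, the cathepsin that trims the invariant chain from class II and named after its values were seen, was at 1582 and 1438 CPM (0.91, 0.86 to 0.96; core 1.04). Of 13 measured genes of pattern recognition none was higher and Cd14 was lower.

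Transcription factors of the myeloid programme went the other way. Cebpb, which drives inflammatory and monocytic genes, had a median of 7 UMIs per WT member and 3 per yap1 member, with highest values of 100 and 73. Its summed level was 998 and 538 CPM, a ratio of 0.54 (0.49 to 0.59), and 0.68 in the core. In the other gated populations the ratio of Cebpb was between 0.91 and 1.10. Nfil3, a bZIP factor of dendritic cell development, was at 111 and 69.2 CPM (0.62, 0.48 to 0.80; core 0.64), against 0.98 in monocytes and 1.13 in macrophages. Of 22 measured factors on the list of dendritic cell transcription factors 2 were past 1.5-fold higher (Irf4 and Zbtb46) and 3 lower (Cebpb, Nfil3 and Runx1), with a median log2 ratio of -0.03. Jdp2, an AP-1 repressor, was at 164 and 64.9 CPM (0.40, 0.31 to 0.50; core 0.32), with 0.76 in monocytes and 0.53 in macrophages.

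**Figure D4:**
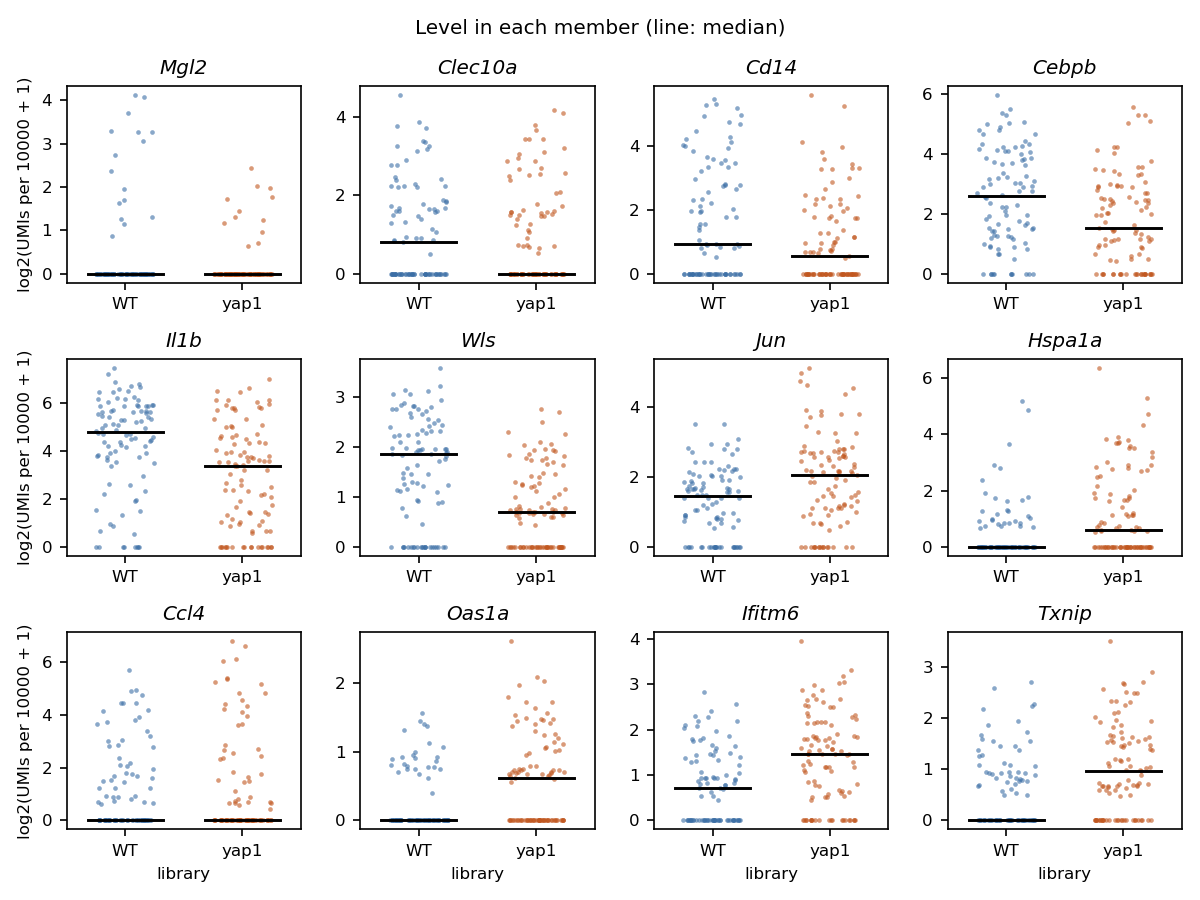
Level of 12 genes in each of 96 WT (blue) and 101 yap1 (orange) members, as log2 of UMIs per 10000 plus 1, with the horizontal line at the median of the library. The libraries overlap for every gene, and the medians of Cebpb, Il1b and Wls are lower and those of Jun, Ifitm6 and Txnip higher in yap1.

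Il1b, Nlrp3 and Cd14 were lower in yap1 members, and Il1b was lower in other cells too. Il1b, the cytokine interleukin 1 beta, was found in 88 WT and 83 yap1 members with medians of 39 and 11 UMIs and highest values of 289 and 301. Its summed level was 3337 and 1855 CPM, a ratio of 0.56 (0.53 to 0.58), and 0.55 in the core. The same ratio was 0.57 in monocytes, 0.62 in macrophages and 0.62 in B cells, so other myeloid cells and B cells differed alike. Nlrp3, the sensor of the inflammasome that matures interleukin 1 beta, was at 123 and 64.9 CPM (0.53, 0.41 to 0.68; core 0.44), and at 0.99 in monocytes and 0.71 in macrophages. Il1b and Nlrp3 were named after their values were seen. Cd14, a coreceptor for bacterial lipopolysaccharide, had a median of 1 UMI per member in both libraries and highest values of 78 and 78. It was at 597 and 290 CPM (0.49, 0.43 to 0.54), with 0.50 in the core, 0.89 in monocytes and 0.83 in macrophages.

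Chemokines of the CCL3 family were higher in yap1 members. Ccl3 was found in 22 WT and 32 yap1 members with highest values of 21 and 53 UMIs. It was at 66.3 and 158 CPM (2.38, 1.86 to 3.07; core 2.73). Ccl4 was found in 46 and 42 members with highest values of 71 and 176 UMIs, and was at 386 and 706 CPM (1.83, 1.65 to 2.03). The median member had no UMI of either, so a minority of cells carried both genes. Without the 5 members with most UMIs of the gene in each library the ratio was 4.47 for Ccl3 and 1.34 for Ccl4. The ratios of Ccl3 were 1.20 in monocytes and 0.92 in macrophages. Ccl2 and Cxcl10 rested on very few cells: 63 of the 84 WT UMIs of Ccl2 were in 1 member, against 1 UMI in yap1, and Cxcl10 (11 and 58 UMIs) was found in 2 and 3 members. Of the 17 measured genes on the list of inflammatory cytokines and chemokines 5 were higher and 4 lower by 1.5-fold, with a median log2 ratio of 0.14.

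Lectin receptors did not move together. Mgl2 and Clec10a are neighbouring genes on chromosome 11 that encode related galactose-type lectins (GRCm38, GENCODE M21: Mgl2 at chr11:70130329-70137550 and Clec10a at chr11:70156197-70170834, both on the plus strand). Mgl2 was found in 16 WT members with up to 23 UMIs and in 12 yap1 members with up to 7. It was at 99.9 and 22.04 CPM, a ratio of 0.22 (0.15 to 0.32), and 0.27 in the core. In each library 5 members held most of it, 63.4% of the WT and 66.7% of the yap1 UMIs. Clec10a, a rule marker, was at 189 and 193 CPM, a ratio of 1.02 (0.86 to 1.21). Of the 50-base words in the last 500 bases of their transcripts 9.82% of those of Mgl2 and 13.8% of those of Clec10a also occur in another gene, so a small share of reads may be assigned to either. Clec4e (Mincle, a receptor for damaged cells and mycobacterial lipid) was at 58.1 and 15.3 CPM (0.26, 0.16 to 0.42; core 0.44). Clec4n (Dectin-2) was at 57.4 and 26.3 CPM (0.46, 0.31 to 0.67; core 0.55). Clec2i, a ligand of an inhibitory receptor of natural killer cells, was at 28.3 and 62.4 CPM (2.20, 1.51 to 3.29; core 2.12). Of 14 measured lectins 1 was higher and 4 lower by 1.5-fold, with a median log2 ratio of -0.18 in all members and 0.04 in the core.

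Costimulatory genes were mostly similar. Of 14 measured 2 were past 1.5-fold higher and none lower, with a median log2 ratio of 0.12. Cd40, the receptor for help from T cells, was at 21.6 and 44.1 CPM (2.04, 1.31 to 3.26; core 1.51), but in members thinned to 2000 UMIs, where few UMIs of it remained, the ratio was 0.38. Cd274 (PD-L1) had 20 and 39 UMIs (1.60, 0.91 to 2.90). Cd83, an activation marker, was at 572 and 426 CPM (0.74, 0.67 to 0.82) and found in 95.8% and 84.2% of members. Among 24 measured receptors and signal transducers of growth factors and cytokines 3 were higher and none lower. Il2rg, the common gamma chain, was at 67.1 and 119 CPM (1.78, 1.38 to 2.31; core 1.57), Stat5b at 26.8 and 46.5 CPM and Stat6 at 44.7 and 68.0 CPM, with ratios of 1.73 and 1.52. Part of the 3' end of Il2rg (30.2% of its 50-base words) and of Stat5b (15.5%) is shared with another gene. In the core Stat5b was at 1.33 and Stat6 at 1.48. Among 7 measured Notch pathway genes, a pathway needed by some type 2 cells in spleen and gut, Hes6, a Hes-family repressor, was past 1.5-fold (26.8 and 44.7 CPM, 1.67, 1.10 to 2.56), but at 1.46 in the core.

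Stress-responsive groups were led by a few genes each. Hspa1a and Hspa1b, which encode the inducible HSP70 chaperone, are shown with the sequence before their start because they were the 2 of 11 measured heat shock genes past 1.5-fold. Both lie on chromosome 17, and in the 250 bases before the start the 2 copies are identical at 247 positions. Capitals mark GAANNTTC, a pair of inverted heat shock factor half-sites, searched on both strands (a palindrome reads the same on both). Sequences are from the RefSeq promoter table of build GRCm38.p6, 5′ to 3′ on the gene's minus strand, at chr17:34972161-34972280 for Hspa1a and chr17:34959243-34959362 for Hspa1b.
Hspa1a: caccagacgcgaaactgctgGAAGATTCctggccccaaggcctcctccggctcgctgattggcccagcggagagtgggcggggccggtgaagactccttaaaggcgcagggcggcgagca
Hspa1b: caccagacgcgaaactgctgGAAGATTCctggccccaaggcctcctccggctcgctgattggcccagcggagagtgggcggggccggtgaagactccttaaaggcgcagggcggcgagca
These letters occur in the same 250-base window of 6.69% of all 32851 RefSeq promoters, and they were not found in those of the cochaperones Hsph1 and Dnajb1.

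Hspa1a was found in 30 of 96 WT members, with a median of 0 and a highest value of 49 UMIs, and in 56 of 101 yap1 members, with a median of 1 and a highest value of 99. Its summed level was 110 and 350 CPM, a ratio of 3.17 (2.65 to 3.83). Hspa1b was found in 39 and 52 members with highest values of 19 and 68 UMIs and was at 99.1 and 261 CPM (2.63, 2.16 to 3.22). No 50-base word in the last 500 bases of either gene occurs in another gene, so reads from that stretch can be told apart. The rest of the 2 transcripts was not checked. In the core the ratios were 2.61 and 2.52, and B cells also had ratios above 2 (2.44 and 2.22), while monocytes had 0.81 and 0.91 and macrophages 0.79 and 0.75. In plasmacytoid dendritic cells the genes diverged, at 1.23 and 0.44. Hsph1 (45.5 and 35.5 CPM, 0.78, 0.54 to 1.14) and Dnajb1 (67.1 and 53.9 CPM, 0.80, 0.59 to 1.09) were not higher. Handling of the suspension and warming were not recorded in the labels, and their part in the result was not tested.

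The immediate early genes Jun and Egr1, transcription factors induced within minutes of a stimulus, were the 2 of 24 measured that were past 1.5-fold higher. Jun was found in 73 WT and 85 yap1 members with medians of 2 and 4 UMIs and highest values of 16 and 47. It was at 207 and 457 CPM, a ratio of 2.20 (1.92 to 2.54), and 2.33 in the core. Egr1 was at 67.8 and 161 CPM (2.37, 1.86 to 3.05; core 2.24). The ratio of Jun was 1.04 in plasmacytoid dendritic cells and in monocytes, 1.19 in macrophages and 1.63 in B cells. Nr4a2, an orphan nuclear receptor of the same class of early genes, was at 245 and 122 CPM (0.50, 0.41 to 0.59; core 0.39), 1 of 4 that were past 1.5-fold lower. The median log2 ratio of the list was -0.07.

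Among interferon-stimulated genes 8 of 22 measured were past 1.5-fold higher and none lower in yap1 members, against 5.01% and 6.08% of all genes. The median log2 ratio was 0.25. That median was 0.03 among genes with at least 100 UMIs, and the summed level of the list was 3750 and 3876 CPM, so the abundant members of the list hardly differed. Oas1a, an enzyme that senses double-stranded RNA, is shown with Ifit1, which binds viral RNA, since both were among the 4 with the largest ratios. Capitals mark the core of the interferon-stimulated response element, GAAA followed by any 2 bases and GAAA again, searched on both strands (TTTC, any 2 bases and TTTC on the other). In Oas1a 2 overlapping matches form 1 run. Sequences are from the RefSeq table of build GRCm38.p6 at chr5:120907526-120907645 (minus strand) and chr19:34640765-34640884 (plus strand).
Oas1a: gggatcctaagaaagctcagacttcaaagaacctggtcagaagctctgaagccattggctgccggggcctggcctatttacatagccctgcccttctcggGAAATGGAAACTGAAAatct
Ifit1: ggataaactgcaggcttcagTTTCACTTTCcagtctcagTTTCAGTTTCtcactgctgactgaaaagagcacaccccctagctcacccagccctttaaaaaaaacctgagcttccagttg
The letters are in the 250-base window of 2.98% of all RefSeq promoters.

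Oas1a was found in 26 of 96 WT and 53 of 101 yap1 members, with highest values of 4 and 6 UMIs. It was at 26.1 and 65.5 CPM, a ratio of 2.51 (1.70 to 3.79), and 3.87 in the core. Of its 3' words 56.1% are shared with Oas1g, so its counts may include or lose reads of that copy. Mx1, an antiviral GTPase, had 15 and 45 UMIs, in 12 and 33 members (2.46, 1.35 to 4.76). Both were spread over many cells with 1 or 2 UMIs each. Ifit1 (12 and 45 UMIs, ratio 3.08) and Gbp2 (10 and 48 UMIs, ratio 3.94) were not, with 18 and 23 of the yap1 UMIs in 1 member. The ratio of Oas1a was 2.12 in monocytes and 2.02 in macrophages. Ifitm6, an interferon-induced membrane protein of myeloid cells, had medians of 1 and 3 UMIs, was found in 54 and 80 members and was at 93.2 and 208 CPM (2.23, 1.81 to 2.76; core 2.26). Its ratio was 1.96 in monocytes and 1.46 in macrophages.

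Among the genes with the largest difference by interval, some were in no list above. Txnip, an inhibitor of thioredoxin and of glucose uptake, had medians of 0 and 2 UMIs and was at 68.6 and 140 CPM (2.04, 1.59 to 2.62; core 1.89). Its ratio was between 0.84 and 1.10 in the 4 other large populations. Dhrs3, a retinal reductase, was found in 19 WT and 51 yap1 members and was at 23.9 and 60.0 CPM (2.52, 1.67 to 3.88; core 2.59), with 2.55 in monocytes. Wls, which carries Wnt proteins to the cell surface, was found in 74 and 63 members with medians of 3 and 1 UMIs. It was at 256 and 103 CPM (0.40, 0.33 to 0.49; core 0.40), with 0.25 in plasmacytoid dendritic cells, 0.50 in B cells, 0.67 in monocytes and 0.84 in macrophages. Tagap, a GTPase-activating protein of activated lymphocytes, was at 30.6 and 68.6 CPM (2.24, 1.56 to 3.29), but 48.6% of its 3' words are shared with another gene. Fabp5, a fatty acid carrier, was at 202 and 49.6 CPM (0.25, 0.19 to 0.32; core 0.31), while monocytes had a ratio of 2.35. A single WT member held 92 of its 271 UMIs.

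**Figure D5:**
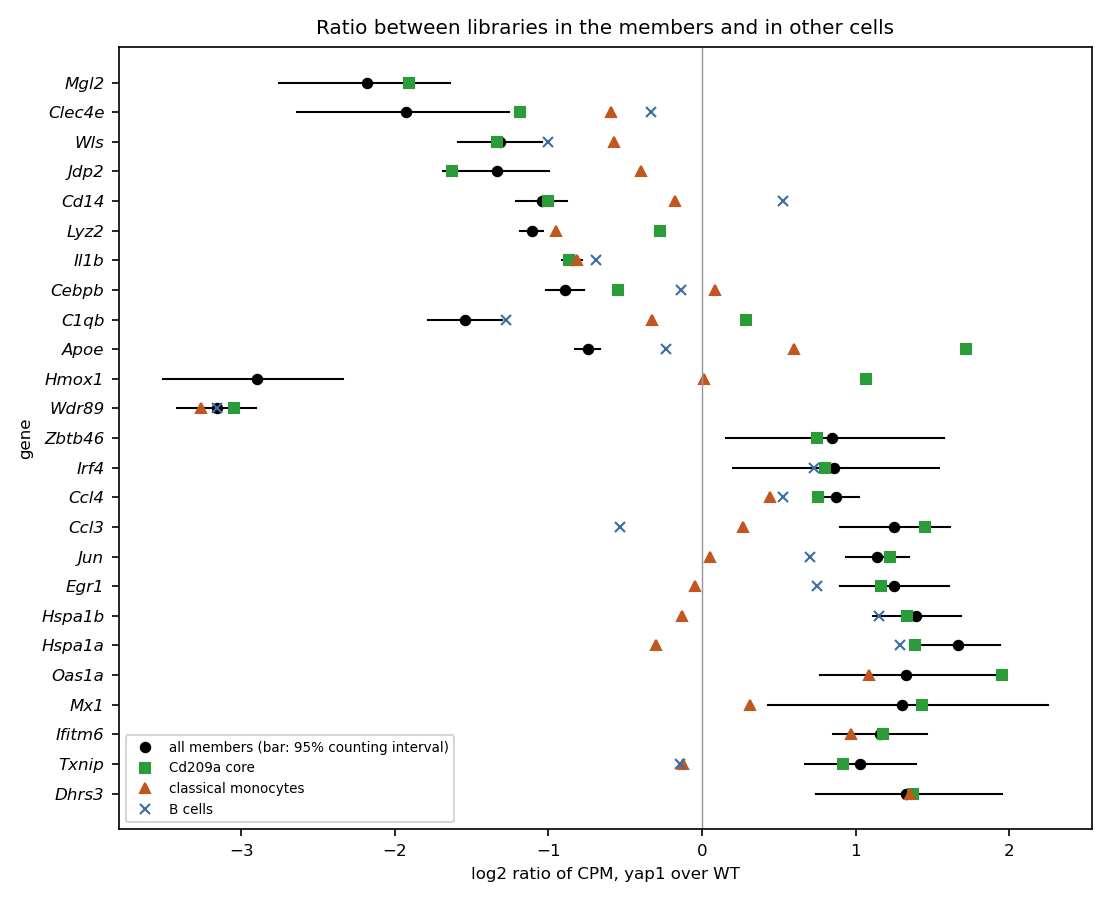
Log2 ratio of CPM in yap1 over WT (horizontal) for 25 genes (vertical) in all members (black, with the 95% counting interval), in the Cd209a core (green squares), in classical monocytes (orange triangles) and in B cells (blue crosses), the last 2 where both libraries together had at least 50 UMIs. Wdr89 has nearly the same ratio in every population, and Apoe, C1qb and Hmox1 are left of 0 in all members and right of 0 in the core. The core leaves out members with over 2 C1q UMIs.

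Wdr89, Nme2 and Gng10 were low across the whole yap1 library. Wdr89 was at 780 and 87.6 CPM in members (0.11, 0.09 to 0.13), and between 0.10 and 0.14 in plasmacytoid dendritic cells, monocytes, macrophages and B cells. Nme2 (0.12) and Gng10 (0.24) had ratios of 0.09 to 0.12 and of 0.12 to 0.20 in the same populations. Of the 3' words 98.9% of Nme2 and 96.7% of Gng10 are shared with overlapping read-through genes, and 19.9% of those of Wdr89 with other genes. The 3 values are therefore uncertain as levels of these genes.

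Macrophage and monocyte genes depended on which members were counted. C1qb was found in 23 members of each library, at 369 and 127 CPM, a ratio of 0.34 (0.29 to 0.40). In the core it was 1.22, but the core leaves out members with over 2 C1q UMIs, so this value follows in part from that choice. Apoe was at 2116 and 1262 CPM (0.60, 0.56 to 0.63), but 3.29 in the core. Hmox1, the heme-degrading enzyme of macrophages, was at 137 and 18.4 CPM (0.13, 0.09 to 0.20), with 157 of its 184 WT UMIs in 1 member, and at 2.09 in the core. The macrophage list, with 5 of 10 measured genes past 1.5-fold lower and none higher (6.08% and 5.01% among all genes), had a median log2 ratio of -0.42 in all members and 0.43 in the core. The monocyte list, with 5 of 11 lower and none higher, had -0.47 and -0.02. Both core medians cover only the list genes measured there, and the macrophage list includes the C1q genes that the core was chosen by. The monocyte list includes Lyz2. Lyz2, whose locus carries Cre, was found in 90 and 84 members with medians of 8 and 3 UMIs and highest values of 505 and 232. It was at 2903 and 1345 CPM (0.46, 0.44 to 0.49), against 0.83 in the core, 0.52 in monocytes and 0.57 in macrophages. Of the 3' words of Lyz2 16.9% are shared with Lyz1, so its counts may include or lose reads of that gene. Lyz1 had 1 UMI in WT and 24 in yap1 members, 9 and 818 in monocytes, and 227 and 2893 in macrophages. Hemoglobin Hbb-bs was at 11.9 and 1246 CPM, nearly all in the 1 yap1 member named above. Free RNA and doublets were measured through these lists, and their part in the result was not tested.

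Few members were dividing. At least 5 UMIs of the proliferation genes Mki67 and Top2a were found in 5 WT and 7 yap1 members. Top2a, a topoisomerase of dividing cells, was at 58.1 and 26.9 CPM (0.46, 0.31 to 0.68), but 5 members held 98.7% of its WT and 88.6% of its yap1 UMIs, and the ratio was 1.31 in the core. The cell cycle list had 1 gene of 19 measured past 1.5-fold higher and 7 lower (5.01% and 6.08% among all genes), with a median log2 ratio of -0.38 in all members and 0.22 in the core. Of 10 measured genes of matrix and repair, which include growth factors released by myeloid cells in scarring liver, none was higher and 3 were lower. Vegfa, the angiogenic growth factor, had 42 UMIs in 21 WT members and 20 in 14 yap1 members, or 31.3 and 12.2 CPM (0.39, 0.22 to 0.68; core 0.36). Mmp14, a membrane-bound collagenase, was at 29.1 and 14.7 CPM (0.51, 0.29 to 0.86; core 0.33). Both are low, and no member had more than 5 UMIs of either.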

How the data were processed

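The deposited files hold whole-number counts (UMIs) per gene and barcode for each of 2 libraries, which the authors did not normalize. The submitters' processing notes name mm10 as the build and list Seurat and Bowtie (0.12.2) without saying what each did. The counting program, droplet chemistry and use of strand are not given in the sources used here. The members and gene lists were chosen with earlier results of these data known.

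Members were found by the raw-count rule. Other populations were found by raw marker counts in a fixed order, so that no barcode is in 2 of them. UMIs of the members were summed per library and divided by their total (CPM). Ratios carry exact conditional binomial intervals and shares exact Clopper-Pearson intervals, and the ratio of 2 shares a log-normal interval, all at 95% and for counting error only. With 1 library per genotype no test was made. Genes needed 50 UMIs in both libraries together. Named genes are the rule genes, Yap1, Wwtr1, Drd2, Lyz2, Lyz1 and Gatm, up to 4 genes per list by ratio, the 12 highest and 12 lowest by interval, and the 20 with the largest excess over other cells. Lyz1 had 1 and 24 UMIs, and Gatm 99 and 137 UMIs.

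Alternatives changed the barcode filter, doublets, rule thresholds, scaling, cell weights, depth and gene minimum. The 2 last, the Cd209a core and members without Xcr1 or Clec9a, were added after seeing the data. Coordinates are from GENCODE M21, in which all 166 genes looked up were found by identifier. The ratio calculation was tested on simulated counts. Scripts ran scanpy 1.11.5 (with Scrublet), pandas 2.3.3, scipy 1.17.1 and numpy 2.4.6 under Python 3.11.15. Some items are not reported here.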

Additional observations from a re-analysis of the deposited data

How the results depend on the processing

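With 1 library per genotype nothing here shows the spread between mice, and ratios under about 50 UMIs are limited by depth. The share of barcodes kept its direction under all 9 alternatives and moved within its interval. Of 1118 recomputed ratios of named genes 953 stayed within the counting interval and the rest did not. Of the 1118, 48 lay on the other side of 1, and 16 of these, of genes past 1.5-fold in all members, are given below. Ratios with under 10 UMIs left were not recomputed. Each list median covers the genes that reached the minimum under that setting, so the genes can differ between settings. The cause of each change was not tested unless the setting itself lowers the number of genes or cells.

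The counts of genes past 1.5-fold (277 higher and 336 lower) were 54 and 84 with members thinned to 2000 UMIs, 723 and 687 at a minimum of 20 UMIs, 103 and 165 at a minimum of 100, and 69 and 74 at 2-fold. Without the 5 members with most UMIs of each gene 469 were higher. Median of ratios scaling gave 309 and 294.

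The monocyte median of -0.47 was 0.0052 at a marker sum of at least 5 and -0.018 in the Cd209a core. The macrophage median of -0.42 was 1.13 at that marker sum, 1.14 with Cd209a and Flt3 both detected, 0.10 without members with C1q or Ly6c2 UMIs and 0.43 in the core. It was -0.421 with the stricter barcode filter, -0.50 without the 4% highest doublet scores, -0.61 without Xcr1 or Clec9a members, -0.388 with median of ratios scaling, -0.391 with a restricted total, -1.11 without the top 5 members, -0.59 at a minimum of 20 and -0.423 at a minimum of 100 UMIs.

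The MHC class II median of 0.05 was 0.093 without high doublet scores, 0.0023 at a marker sum of 5, 0.075 without C1q or Ly6c2, 0.089 and 0.086 with the 2 other scalings, -0.0069 with cells weighted equally, 0.0035 when thinned, 0.117 without the top 5 members and 0.116 at a minimum of 20. The lectin median was 0.042 in the core. The interferon median of 0.25 was 0.0052 when thinned and 0.032 at a minimum of 100.

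Ratios changed side for C1qb (3.21 at the higher marker sum, 4.17 with Cd209a and Flt3, 1.01 without C1q or Ly6c2, 1.22 in the core), for Apoe (2.18, 1.52, 9.86 and 3.29 in that order) and for Hmox1 (2.11, 3.02, 1.88 and 2.09). The last 2 of these settings leave out members by C1q count, so the C1qb values of 1.01 and 1.22 follow in part from that choice. Top2a was at 1.15 with Cd209a and Flt3, 1.31 in the core and 1.54 when thinned. Cd40 was at 0.384 when thinned.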
